A study of Mus musculus with 4 samples.

Results

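Wnt4, Wnt6 and Wnt11 are 3 of the 17 genes for secreted Wnt ligands on an imaging panel, followed here across cells of the newborn mouse brain, and they form a set because earlier results placed them at the border of the tissue. The 3 genes, of 140 on the panel in all, were matched by name in all 4 tables of the series. The members were chosen by their levels in meningeal-type cells and neurons, on their positions and on their margin above the blank barcodes, so those values are a description with no test. The name "border-enriched" held to different degrees. Wnt6 was detected above all blanks almost solely in meningeal-type cells. Wnt4 was highest in these cells but most of its counts lay in neurons, and Wnt11 was highest elsewhere. The meningeal-type class was not confined to the outer edge of the section: 39.6% ± 5.84 of its cells lay over 800 coordinate units from it. Whether those cells lay along folds or inner surfaces of the brain was not tested. Wnt4 in this class was higher in those deep cells than at the surface in 8 of 8 sections, though not within every sub-cluster.

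The study imaged RNA molecules in place with MERFISH, which reads barcoded probes over repeated rounds of hybridization. Mice were at postnatal day 5, and whisker lesions had been made on the right snout at postnatal day 4, 24 h before. Coronal sections of 10 µm that contained the barrel cortex lay on 4 coverslips, 2 from males and 2 from females, and each coverslip carried 1 wild-type section and 1 Cx3cl1-/- section. Cx3cl1 encodes fractalkine, a chemokine of neurons read by microglia. All animals had the lesion, which left no unlesioned animal as a control. The files say neither which section of a coverslip had which genotype nor which side of a section was opposite the lesion, so neither contrast was made. The labels name no litter or animal, and p-values between the sexes measure only the spread between these coverslips.

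Wnt proteins are lipid-modified signals that act over short distances. Porcn attaches the lipid and Wls carries the protein to the cell surface, where it meets Frizzled receptors with Lrp or Ror co-receptors. In the canonical branch beta-catenin then reaches TCF/LEF factors in the nucleus, while non-canonical branches steer cell shape and movement. Wnt4 is known for the formation of kidney tubules and of the female reproductive tract, Wnt6 for epithelial formation in somites, and Wnt11 mainly for non-canonical signalling in tissue elongation. The meninges, the layered membranes around the brain, hold fibroblasts, vessels and macrophages and send secreted signals into the cortex below.

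The bases before the transcription start of each gene are printed because the cells that carried the 3 transcripts differed, as described below; the imaging measured no promoter. RefSeq held a start for all 3 genes in build GRCm38.p6, and 250 bases upstream are given on the plus strand. The windows are chr4:137277385-137277634 for Wnt4, chr1:74771642-74771891 for Wnt6 and chr7:98834862-98835111 for the first of 2 starts of Wnt11. Capitals mark the GC box GGGCGG, the TATA box TATAAA and the TCF/LEF core CTTTGA, searched on both strands, so that a match on the other strand shows as the reverse complement.
Wnt4: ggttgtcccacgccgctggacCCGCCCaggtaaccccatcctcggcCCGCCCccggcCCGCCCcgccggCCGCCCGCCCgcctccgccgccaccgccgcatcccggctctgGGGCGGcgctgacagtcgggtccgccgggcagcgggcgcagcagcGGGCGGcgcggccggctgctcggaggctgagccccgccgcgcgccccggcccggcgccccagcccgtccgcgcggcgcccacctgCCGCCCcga
Wnt6: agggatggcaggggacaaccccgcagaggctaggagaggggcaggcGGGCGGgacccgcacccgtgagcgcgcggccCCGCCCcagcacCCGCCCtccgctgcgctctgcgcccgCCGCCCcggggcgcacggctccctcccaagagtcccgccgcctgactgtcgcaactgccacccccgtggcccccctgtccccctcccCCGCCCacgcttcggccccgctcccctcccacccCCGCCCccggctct
Wnt11: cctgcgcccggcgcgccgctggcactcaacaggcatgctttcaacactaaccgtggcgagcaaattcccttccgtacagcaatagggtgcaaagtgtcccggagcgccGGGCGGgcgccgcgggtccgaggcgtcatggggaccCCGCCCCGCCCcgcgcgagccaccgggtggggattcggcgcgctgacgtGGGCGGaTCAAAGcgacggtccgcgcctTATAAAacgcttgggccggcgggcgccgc
The Wnt4 window held 8 GC boxes, the Wnt6 window held 6, and neither held a TATA box or a TCF/LEF core. The Wnt11 window held 4 GC boxes, 1 TATA box 29 bases before the transcription start and 1 TCF/LEF core on the other strand 50 bases before it. Some neighbouring matches overlap. Of 32851 windows of the same length, 32.7% held a GC box, 12.4% a TATA box and 13.8% a TCF/LEF core. The GC content was 85.2% for Wnt4, 79.6% for Wnt6 and 70.8% for Wnt11, against a median of 52.4% over all windows. The second Wnt11 start had none of the 3 motifs.

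The 4 tables held 863580 cells, of which 794833 with at least 20 gene counts were kept. The median kept cell had 161 and 162 gene counts on the male coverslips and 185 and 273 on the female coverslips. Blank barcodes, 40 in all, match no probe and took 1.16% to 1.48% of all counts, which gives the level of false reading in the same cells. Levels below are counts per 1000 volume units of the cells as segmented, summed over the cells of a population on a coverslip, with mean ± SD over 4 coverslips. A level at or below the highest blank of the same cells was not told apart from false reading. Probe efficiency differs between genes, so no member is compared in level with another.

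Cells were clustered without the 3 ligands and without Cx3cl1, and clusters are named by number and leading genes. Cluster 14 lay at the outer surface and in deep places and was split into 7 sub-clusters. Of these, 14a (led by Col4a6 and Wnt5a), 14d (Trabd2b and Fzd7), 14e (Col4a6 and Gfap) and 14g (Mrc1, Lyve1 and Col4a6) are called meningeal-type here, 8804 cells in all. Marker lists named 14d and 14e leptomeningeal fibroblast-like and 14g border macrophage-like, and left 14a unnamed. Only 4 of the listed fibroblast markers were on the panel (Vim, Id1, Wnt5a and Pdgfrb), so the names are weak: the same 4 also marked cluster 8, whose leading genes Cldn5 and Pecam1 are those of endothelium. Sub-clusters 14b and 14c were led by Ezr, a cytoskeletal linker of epithelial surfaces, and 14f by Pdgfrb and Sfrp4. All 3 of those lay deep, with 96.5% to 99.3% of their cells over 800 coordinate units from the outer edge, and were kept out of the meningeal-type class by a threshold set with the data in view. Over the coverslips 14b held 0.338% to 0.440% of the kept cells, 14c 0.281% to 0.332% and 14f 0.155% to 0.276%. The class is therefore a rule on Col4a6, Trabd2b and Ezr, not a proven cell type, and 14f, which the markers also named fibroblast-like, is outside it.

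Wnt4 was highest in meningeal-type cells. On coverslips 1 to 4 the level there was 5.52, 4.99, 5.70 and 7.83, and in neurons it was 1.01, 0.826, 0.861 and 1.38. The meningeal-type level was above the neuronal level on each coverslip, and the values of the classes did not overlap. The mean was 6.01 ± 1.25 in meningeal-type cells and 1.02 ± 0.253 in neurons, and the ratio within a coverslip was 5.95 ± 0.508 (SD, n = 4). Wnt4 was above all 40 blanks in both classes on all 4 coverslips, with a level of 92.3 times the mean blank in meningeal-type cells and 8.59 times in neurons. Without 14g the ratio was 6.13. It was 9.01 per 10000 gene counts in place of volume, 3.73 with clusters drawn at a resolution of 2 and 3.67 with all of cluster 14 as meningeal-type.

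The meningeal-type sub-clusters differed in Wnt4. Sub-cluster 14a had 7.96, 7.14, 8.73 and 11.03 on coverslips 1 to 4 (mean 8.71 ± 1.67) and 14e had a mean of 6.27 ± 1.82. The border macrophage-like 14g had 5.01 ± 1.58, whereas 14d, the sub-cluster closest to the surface, had only 1.70 ± 0.280. Besides Mrc1 and Lyve1, the leading genes of 14g included Col4a6, Trabd2b and Wnt5a. The macrophage-type cells of 15c, outside the class and led by Mrc1 and Lyve1 with little Col4a6, had Wnt4 at 1.60 ± 0.382. Their values did not overlap those of 14g. Whether the Wnt4 counts of 14g came from macrophages was not tested. The 14a level was above the 14e level on 4 of 4 coverslips, by 1.42 ± 0.121 times. A Wnt4 count was present in 87.9% ± 0.718 of 14a cells and in 46.0% ± 1.37 of 14d cells. In microglia-like cells of cluster 15a, taken as a type without Wnt4, the share was 9.08% ± 0.841, and a single blank was present in 3.52% of those cells on average, and in 4.19% of 14a cells. Median gene counts were 138 in 14a, 84.9 in 14d and 115 in 15a, and shares of cells move with that depth.

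After 3 of the 4 meningeal-type sub-clusters, the next highest Wnt4 was in neurons of cluster 6, led by Tcf7l2 and Slc17a6, genes shared by thalamic projection neurons. Their level was 2.55, 1.81, 1.95 and 2.95 (mean 2.32 ± 0.530), and these values did not overlap those of 14g. Cluster 16, led by Musk and Ezr, followed with 1.82 ± 0.306, neurons of cluster 9 (Slc17a6 and Peg3) with 1.79 ± 0.594, and 14d with 1.70 ± 0.280. The differences between cluster 16, cluster 9 and 14d were within their spread. The lowest level of all was in 15a, at 0.144 ± 0.0221, where Wnt4 exceeded 37 to 39 of the 40 blanks. Astrocyte-like cells, at 0.277 ± 0.0449, and oligodendrocyte precursor-like cells, at 0.283 ± 0.0475, were low but above all blanks on all 4 coverslips.

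Since neurons were far more numerous, they held most Wnt4 counts. Meningeal-type cells were 0.954% to 1.27% of the kept cells and held 5.81% to 8.42% of the Wnt4 counts. Neurons were 60.7% to 67.0% of the cells and held 72.9% to 81.6% of the counts. Cluster 6 alone held 18.9% ± 0.855.

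Wnt6 was the member nearest to a pattern of meningeal-type cells alone. Its level in meningeal-type cells was 1.11, 0.525, 1.61 and 1.14 on coverslips 1 to 4, all above every blank there, with a mean of 1.09 ± 0.443. In neurons it was below the mean blank, at 0.0839 ± 0.00736, and exceeded only 11 to 18 of the 40 blanks. The ratio of 13 ± 5.21 therefore sets a measured level against one not told apart from false reading, and a true fold cannot be given. The margin over the mean blank was 16.1 in meningeal-type cells and 0.715 in neurons. Coverslip 2, a male one, was the lowest and coverslip 3, a female one, the highest. Without 14g the ratio was 13.8, at a clustering resolution of 2 it was 8.09, and with all of cluster 14 as meningeal-type it was 8.24.

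The order of the meningeal-type sub-clusters in Wnt6 was not that in Wnt4. The surface sub-cluster 14d had 2.03, 0.844, 2.68 and 1.81 (mean 1.84 ± 0.760), followed by 14a with 1.08, 0.580, 1.96 and 1.52 (mean 1.28 ± 0.591). The 14d level was above the 14a level on 4 of 4 coverslips. Sub-cluster 14g had 0.662 ± 0.253, 14e had 0.469 ± 0.183 and the deep 14f had 0.317 ± 0.114. These 5 were the only populations in which Wnt6 was above all blanks on all 4 coverslips, and 14f passed them in 7 of 8 sections. Cluster 11, a group of low-count cells with 13 cells on coverslip 4, was left out of this order. A Wnt6 count was present in 45.0% ± 7.65 of 14d cells, against 3.20% ± 0.422 of 15a cells. Macrophage-type cells of 15c, led by Mrc1 and Lyve1, were next at 0.236 ± 0.0885, above 37 to 39 of the blanks. The 4 meningeal-type sub-clusters held 8.91% to 15.3% of all Wnt6 counts. The 55.2% to 70.7% in neurons came at a level below the mean blank.

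Wnt11 went against the border label. Its level in meningeal-type cells was 0.179, 0.118, 0.171 and 0.172 on coverslips 1 to 4, above all blanks on 2 of them, and 0.115 ± 0.0210 in neurons. In neurons Wnt11 exceeded 17 to 29 of the 40 blanks and was above all of them on no coverslip, so the ratio of 1.4 ± 0.134 per volume is not a true fold. Against the mean blank of the same cells the level was 2.47 times in meningeal-type cells and 0.974 times in neurons. Meningeal-type cells held 1.23% to 2.12% of the Wnt11 counts. With all of cluster 14 taken as meningeal-type, the Ezr-led sub-clusters included, the ratio became 2.11, and per 10000 gene counts it was 2.13.

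The highest Wnt11 was in cluster 16, led by Musk, Ezr, Vim and Sox9. It read 0.530, 0.354, 0.566 and 0.557 on coverslips 1 to 4 (mean 0.502 ± 0.0995), above all blanks on each and in 8 of 8 sections. Cluster 16 lay deep: 1.26% of its cells were within 25 units of the outer edge, and 52.2% ± 4.91 lay within 50 units of an Ezr-led cell of 14b or 14c. Those sub-clusters came next in Wnt11, 14c with 0.455 ± 0.130 and 14b with 0.357 ± 0.180. They were above all blanks on 1 and on 2 of the 4 coverslips, and their difference was within the spread. Cluster 16 was above 14c on 3 of 4 coverslips. The deep 14f, at 0.242 ± 0.0763, was the other population above all blanks on all 4. A Wnt11 count was present in 24.8% ± 3.27 of cluster 16 cells, against 4.79% ± 0.783 of 15a cells.

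Neurons of cluster 5, led by Bcl11b and Prkce, came after cluster 16, 14c and 14b and held the largest share of Wnt11 counts of any population, 19.4% ± 5.98. Their mean was 0.256 ± 0.0812, above all blanks on 1 coverslip. In cluster 6 the mean was 0.202 ± 0.0385, above all blanks on none. These cluster means hid a sharp pattern in space, which is described below.

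**Figure D1:**
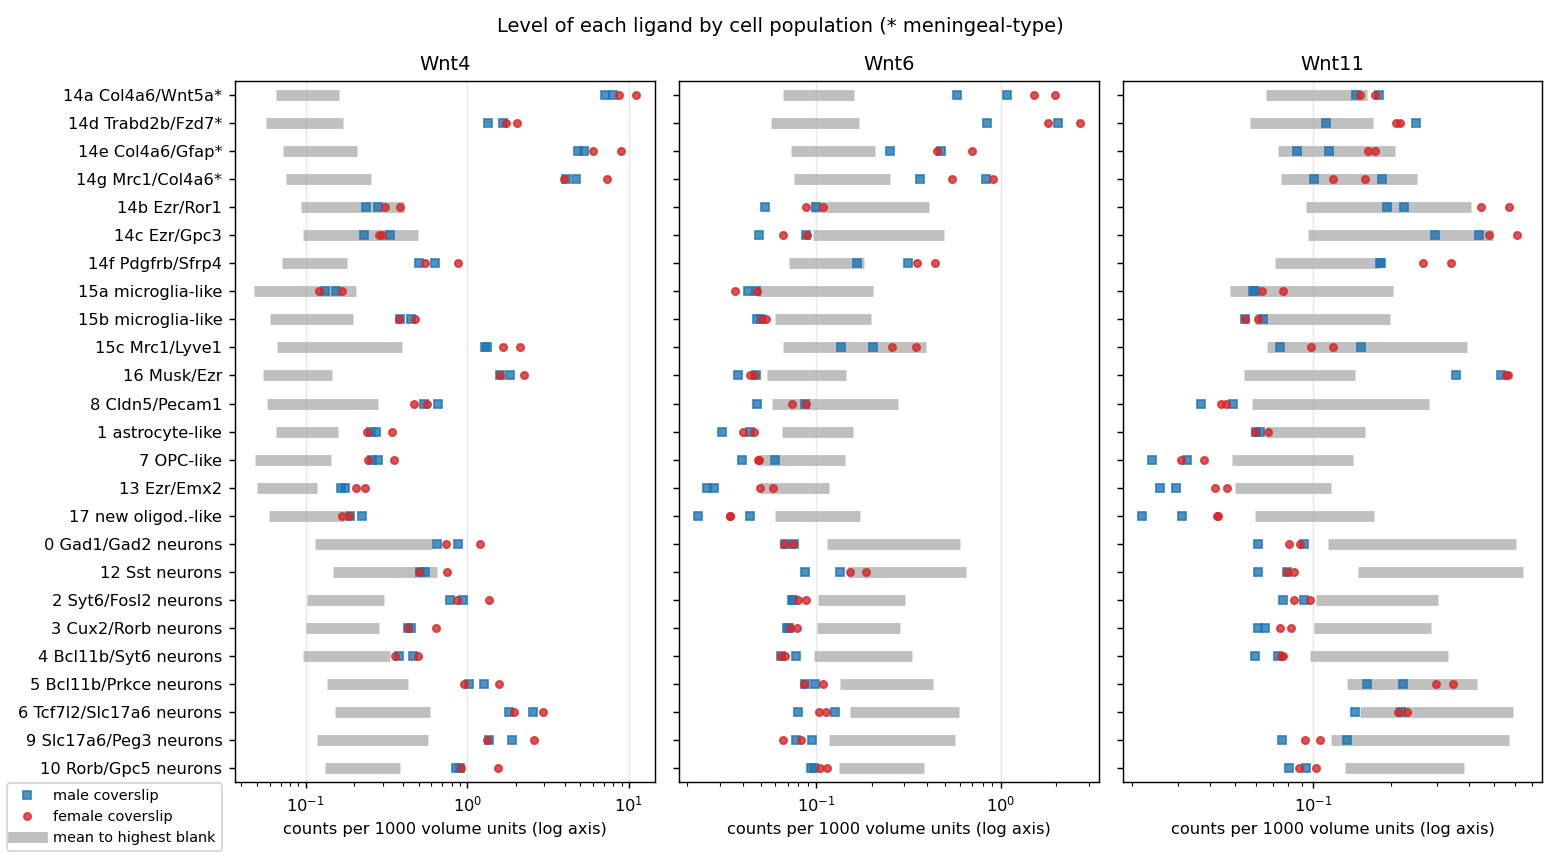
Level of Wnt4, Wnt6 and Wnt11, in counts per 1000 volume units on a log axis, in 25 populations; each point is 1 coverslip, squares are male and circles female, and the grey bar runs from the mean to the highest of 40 blanks in the same cells (averages over 4 coverslips). Wnt4 stands right of the bar in most populations and farthest in 14a, Wnt6 in the starred meningeal-type sub-clusters and 14f, and Wnt11 in cluster 16.

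Position separated the members further. The outer edge of a section was drawn around its cells, and distances are in the coordinate units of the files, whose scale is not stated there. Within 25 units of the edge, over all kept cells of a section, Wnt4 read 1.82 ± 0.404 and Wnt6 0.366 ± 0.214 (SD, n = 8 sections). Both were above all blanks there in 8 of 8 sections. Between 25 and 50 units Wnt4 was at 0.62 ± 0.172 and Wnt6 at 0.114 ± 0.0374, and Wnt6 was above all blanks in none of the 8. Wnt11 was at 0.0903 ± 0.0334 in the outermost bin and above all blanks in no section. Meningeal-type cells were 19.1% ± 4.86 of the cells in the outermost bin and 2.70% ± 1.53 in the next.

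A broader band, the outer 100 units on a grid of squares with inner holes such as ventricles closed, was set against the interior per cell. Wnt4 was 1.73 ± 0.504 times as high in the band, from 1.23 to 2.61 over the sections. For Wnt6 the ratio was 3.54 ± 1.94, from 1.90 to 7.50, against an interior that was not told apart from false reading, so that its size is not a true fold. Both were higher in the band in 8 of 8 sections, while the blanks were lower there, at 0.816 ± 0.107. Wnt11 was higher in 2 of 8 sections, with a ratio of 0.863 ± 0.327. Without the meningeal-type cells the ratio was 1.21 ± 0.354 for Wnt4, above 1 in 6 of 8 sections. For Wnt6 it was 1.65 ± 0.668, above 1 in 8 of 8, again against an interior not told apart from false reading. Within 25 units of the edge, Wnt6 in cells neither neuronal nor meningeal-type was above all blanks only in section 1 of coverslips 2 and 3. The size of the Wnt6 ratio without meningeal-type cells is therefore not a true fold.

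**Figure D2:**
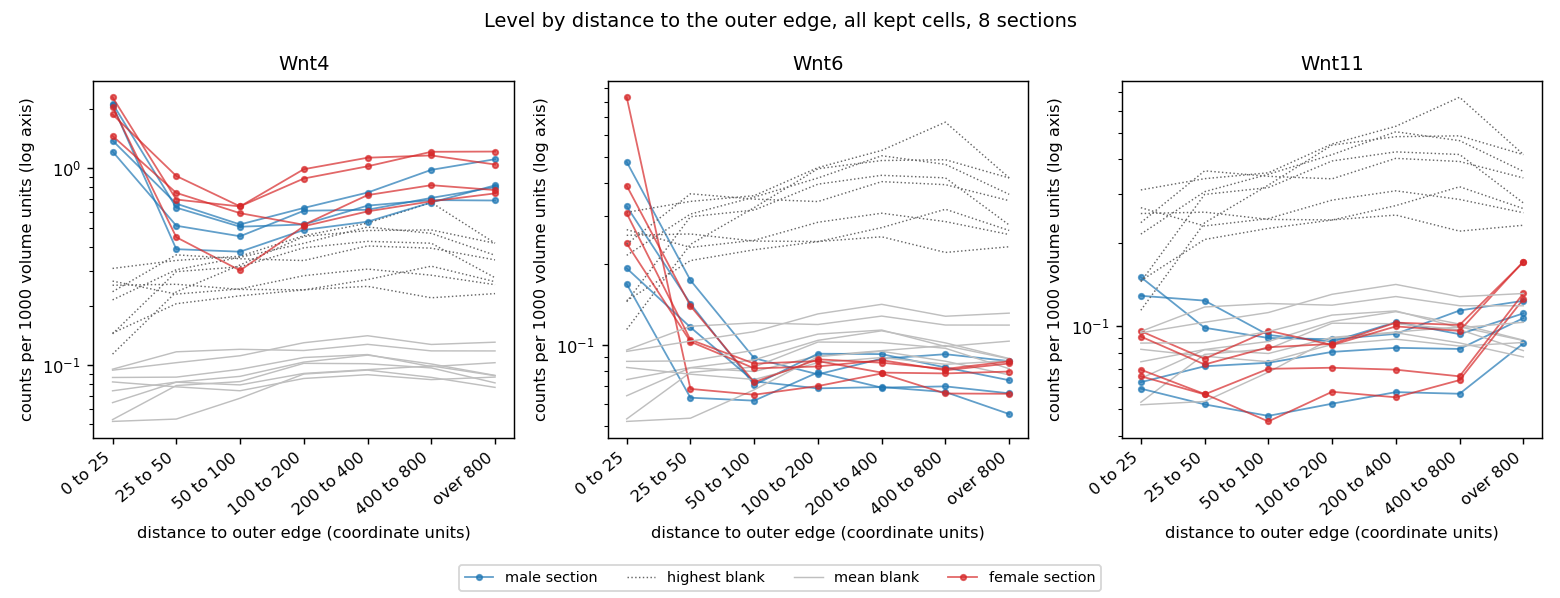
Level over all kept cells, in counts per 1000 volume units on a log axis, by distance to the outer edge in coordinate units; each coloured line is 1 of 8 sections, dotted lines are the highest and grey lines the mean of 40 blanks in the same cells. Wnt6 stands above the highest blank in the outermost bin alone, Wnt4 in every bin of all 8 sections, and Wnt11 in none.

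Meningeal-type cells at the surface and deep in the section carried the ligands in opposite proportion. The 4130 meningeal-type cells within 25 units of the edge had 4.72 ± 0.858 of Wnt4, and the 3438 cells over 800 units from it had 7.96 ± 2.49 (SD, n = 8 sections). Wnt4 was lower at the surface in 8 of 8 sections, with a ratio from 0.363 to 0.906. Wnt6 was 1.32 ± 0.764 at the surface and 0.576 ± 0.236 deep, higher at the surface in 8 of 8 sections, with a ratio from 1.17 to 3.74. Wnt11 was higher at the surface in 3 of 8 sections.

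The mix of sub-clusters moved with this. Of 14d cells 76.3% ± 5.20 lay within 25 units of the edge, against 31.2% ± 9.98 of 14a cells, and 54.8% ± 11.8 of 14a cells lay over 800 units away. Within 1 sub-cluster the direction for Wnt6 was kept in 3 of the 4: surface cells had more than deep cells on 4 of 4 coverslips in 14d, 14e and 14g, and on 3 of 4 coverslips in 14a. The 14d values were 1.99 ± 0.926 at the surface and 0.439 ± 0.436 deep, where 1 coverslip had only 41 deep cells. Wnt4 was lower in surface cells of 14a on 4 of 4 coverslips, at 7.40 ± 1.22 against 9.67 ± 2.43, but in 14d it was higher on 4 of 4, at 1.68 ± 0.263 against 1.27 ± 0.203. In 14e it was higher at the surface on 2 of 4 coverslips, at 6.22 ± 1.21 against 6.61 ± 2.61. In 14g it was higher there on 1 of 4, at 4.74 ± 1.19 against 5.56 ± 1.85. Of the deep 14a cells 17.2% ± 4.58 lay within 50 units of an Ezr-led cell.

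**Figure D3:**
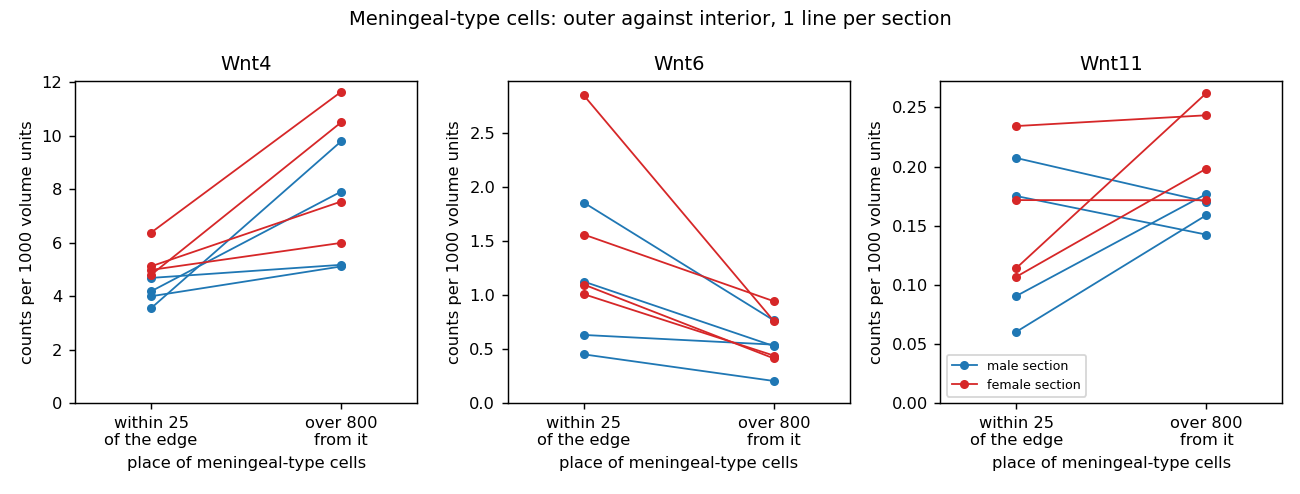
Levels in meningeal-type cells within 25 coordinate units of the outer edge and over 800 units from it, in counts per 1000 volume units; each line is 1 of 8 sections, blue for male and red for female. Every Wnt4 line rises from surface to depth and every Wnt6 line falls, while the Wnt11 lines go either way.

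Cells next to meningeal-type cells, at the surface or deep, also carried more Wnt4 counts. Neurons within 20 units of a meningeal-type cell had 1.46 ± 0.358, and neurons over 200 units away had 1.05 ± 0.255 (SD, n = 4 coverslips). Between 100 and 200 units they had 0.887 ± 0.249, so the level did not fall steadily. By distance to the outer edge the direction was reversed. Neurons within 25 units of the edge had 0.409 to 1.13 over the sections. Those over 800 units away had 0.915 to 1.64, higher in every section. For cells that were neither neurons nor meningeal-type, Wnt4 was 1.49 ± 0.226 within 20 units and 0.281 ± 0.0409 beyond 200, and Wnt6 was 0.180 ± 0.0653 and 0.0495 ± 0.0126. Wnt11 in those cells was 0.0921 ± 0.0167 and 0.0702 ± 0.0155, below the highest blank at both distances (means of 0.170 and 0.237). Wnt6 within 20 units was above all blanks on coverslips 1 and 3 but not on coverslips 2 and 4. Beyond 200 units Wnt6 was below the mean blank of 0.0645. Wnt4 beyond 200 units was above all blanks on coverslips 2 to 4 but not on coverslip 1. How far molecules of neighbouring cells were counted in these cells was not tested. Meningeal-type cells with no other such cell within 200 units, 124 in all, had Wnt4 at 0.770 ± 0.475, against 6.41 ± 1.4 in the 7161 cells that had one within 20 units.

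The tissue was then divided into squares of 100 units, and for each member the 2% of squares with the highest level were found from odd-numbered cells. The level was read in the even-numbered cells of those squares, which had not been used to pick them. Wnt4 was 4.06 times as high inside as outside (median of 8 sections, from 3.36 to 4.61), Wnt6 5.39 times (3.42 to 19.96) and Wnt11 7.44 times (3.73 to 10.8). The same steps with each blank gave a median ratio of 1.56, and 12.5 for the most uneven blank of any section, above the median ratio of each of the 3 members. Outside the squares the median level was 0.0797 for Wnt6 and 0.0918 for Wnt11. Over all kept cells Wnt6 was 0.863 and Wnt11 1.04 times the mean blank, so the size of their ratios is not a true fold. Inside these squares Wnt4 was above all blanks in 8 of 8 sections, Wnt6 in 6 and Wnt11 in 5.

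The cells inside the squares differed between the members. Meningeal-type cells made up a median of 12.9% of cells in the Wnt4 squares and 21.3% in the Wnt6 squares, against 0.887% and 0.756% outside. In the Wnt4 squares neurons of cluster 6 made up a further 29.2%. The Wnt11 squares held 0.731% meningeal-type cells, 44.0% cluster 5 neurons, 16.6% cluster 6 neurons and 4.84% cluster 16 cells, against 6.74% cluster 5 neurons outside. The Wnt11 squares held a median of 2.43% of the volume and 17.0% of the Wnt11 counts.

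Wnt11 in cluster 5 neurons was uneven in space. Even-numbered cluster 5 neurons inside the Wnt11 squares read 0.872 and 0.506 in the sections of coverslip 1, 0.602 and 0.688 on coverslip 2, 1.02 and 1.23 on coverslip 3, and 1.36 and 1.29 on coverslip 4. Outside the squares the same cluster read 0.0986 to 0.181. No section outside reached the lowest section inside. The ratio within a section had a median of 7.04, from 3.06 to 11.1, and Wnt11 inside was above all blanks in 7 of 8 sections. The section that was not, on coverslip 1, rested on 87 cells. The level outside lies below the cluster's mean, which itself was above all blanks on 1 coverslip, so the size of the ratio is not a true fold. Blanks differed between the same cells by a median ratio of 1.07 and all gene counts by 1.04. The panel genes next in line in those cells were named after their values were seen. They were Wnt2, another Wnt ligand, at 4.95 times, and Fzd7, a Frizzled receptor, at 3.27 times. Each was higher in 8 of 8 sections, while Sfrp2, a secreted Wnt antagonist, was lower in 8 of 8, at 0.248 times. Cortical layer genes differed as well. Bcl11b was higher in 8 of 8 sections, at 1.76 times. Cux2 (0.371 times), Rorb (0.391) and Syt6 (0.452) were lower in 8 of 8. Whether the cells inside and outside were of 1 neuron type was not tested.

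**Figure D4:**
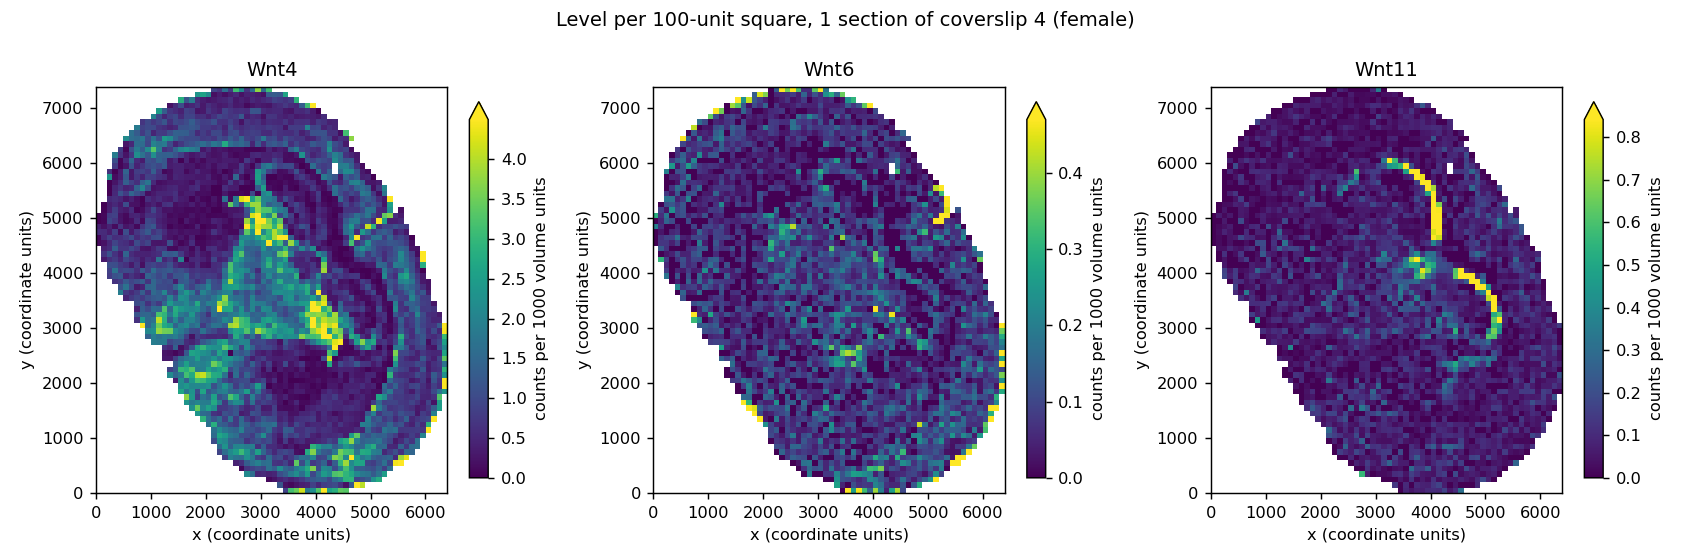
Level of each ligand in squares of 100 coordinate units with at least 5 cells, in 1 section of coverslip 4, the coverslip with the most counts per cell; both axes are in coordinate units, and each colour scale ends at the 99th percentile of that gene's squares. Wnt4 fills a deep central region and stretches of the rim, Wnt6 is bright along stretches of the rim, and Wnt11 forms curved bands in the interior.

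Over all 140 genes, 41 were at least 2-fold higher in meningeal-type cells than in neurons on all 4 coverslips and above all blanks there, which is 29.3% of the panel. Of the members, Wnt4 and Wnt6 were among these and Wnt11 was not, a count that the choice of the members makes a description only. A further 26 genes, 18.6%, were at least 2-fold lower. The median ratio over all genes was 0.878. Only 59 of the 140 genes were above all blanks in neurons on every coverslip, so many of these ratios, those of Wnt6 and Wnt11 among them, have a reference level at false reading and their size is not a true fold.

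The other genes of the pathway on the panel were read by role in the same 2 classes. Of 14 other ligands 2 were higher, Wnt5a with a mean level of 3.31 in meningeal-type cells against 0.303 in neurons and Wnt5b with 0.523 against 0.161. Wnt7b was lower, at 0.192 against 1.48. The list's median ratio was 0.554, but only 6 of the 14 were above all blanks in meningeal-type cells on every coverslip. The mean blank was itself lower there, at 0.0455 to 0.0871 over the sections against 0.0987 to 0.150 in neurons, so that median is not a true fold. Of the secretion genes Wls was higher, at 2.26 against 0.316, and Porcn lower, at 0.209 against 0.999. Of 18 receptors and co-receptors 9 were higher, among them Fzd2 at 2.18 against 0.131 and Adgra2 at 6.70 against 0.582, and Fzd3 was lower, with a list median of 2.77. Of 7 antagonists 1 was higher, Trabd2b, a membrane protease that cuts Wnt proteins, at 2.45 against 0.181. Of 4 nuclear factors Tcf7l1 and Tcf7 were higher, at 1.55 against 0.204 and 0.974 against 0.142. None of these named higher genes was above all blanks in neurons on every coverslip, so no exact fold is given for them. In all, 15 of 45 pathway genes were higher and 3 lower. The median over the 45 was 1.47 times, which is no true fold either, since only 32 of them were above all blanks in meningeal-type cells on every coverslip.

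The genes whose pattern over the 18 clusters was most like that of Wnt4 were Wnt2b (Pearson r = 0.889), Wnt11 (0.867) and Col4a6 (0.849). For Wnt6 they were Trabd2b (0.881), Sfrp4 (0.839) and Gpc3 (0.804), and for Wnt11 they were Wnt4 (0.867), Wnt2b (0.831) and Wnt9a (0.802). The points share their coverslips and their depth. Wnt6 was above all blanks on all 4 coverslips only in sub-clusters of cluster 14, and Wnt11 only in cluster 16 and 14f. Most points of these genes were thus not told apart from false reading, and each r with Wnt6 or Wnt11 rests on few clusters. Without the low-count cluster 11, over 17 clusters, the genes most like Wnt6 were Col4a6 (0.926), Trabd2b (0.906) and Gpc3 (0.863), and Sfrp4 was no longer among them. The likeness of Wnt4 and Wnt11 depended on the clusters used: over 25 populations, with the sub-clusters apart and the low-count cluster 11 left out, it was 0.425. In the same 25 populations Wnt4 and Wnt6 had 0.764. Within meningeal-type cells r was taken over single cells, on log2 of counts per 1000 volume units plus 1. Its mean over coverslips was 0.0423 for Wnt4 and Wnt6, 0.0418 for Wnt4 and Wnt11 and 0.0448 for Wnt6 and Wnt11. The highest on any coverslip was 0.128, for Wnt6 and Wnt11 on coverslip 1. These cells had a mean of 4.41 Wnt4 counts each but only 0.804 Wnt6 and 0.118 Wnt11 counts. The part of these low counts in r was not tested, so r cannot tell whether the same cells carried the ligands. Summed per coverslip, Wnt6 was 0.904 ± 0.319 in meningeal-type cells without a Wnt4 count. It was 1.24 ± 0.487 in those with 1 to 2 Wnt4 counts, 1.26 ± 0.580 with 3 to 5 and 1.03 ± 0.456 with 6 or more.

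Sex was the contrast that the choice of the members had not used. Per 10000 gene counts over all kept cells, Wnt4 read 32.9 and 30.7 on the male coverslips and 26.3 and 28.2 on the female ones, which did not overlap. Wnt6 read 3.73 and 2.96 in males and 3.14 and 2.24 in females, and Wnt11 read 4.24 and 3.45 against 3.93 and 2.93, both overlapping. By edgeR's quasi-likelihood test over all 140 genes with Benjamini-Hochberg adjustment, the log2 difference female minus male was -0.17 ± 0.17 (SE) for Wnt4, adjusted p = 0.768, -0.27 ± 0.25 for Wnt6, adjusted p = 0.768, and -0.12 ± 0.24 for Wnt11, adjusted p = 0.925. None of the members passed, against 7 of 140 genes (5% of the panel), led by Nfatc1 (log2 -1.02, adjusted p = 5.49e-05 by edgeR), Wnt8a and Wnt16. The low-count cluster 11 was 8.05% and 3.75% of the kept cells on the male coverslips and 1.12% and 0.00552% on the female ones. Nfatc1 and Wnt8a were among its leading genes and Wnt16 was not. The part of cluster 11 in these calls was not tested. The sexes did not overlap for 58 of the 140 genes, 41.4%. The count of 7 fell to 0 without male coverslip 1 or without female coverslip 4 (replicate 2 of that sex), and to 2 without male coverslip 2.

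Within meningeal-type cells, Wnt4 read 284 and 287 per 10000 gene counts on the male coverslips and 218 and 287 on the female ones. Wnt6 read 57.0 and 30.2 in males and 61.4 and 41.9 in females, and Wnt11 read 9.23 and 6.80 against 6.54 and 6.32. Wnt4 and Wnt6 overlapped between the sexes and Wnt11 did not, as was so for 58 of the 140 genes (41.4%) in these cells. The edgeR log2 differences were -0.17 ± 0.18 for Wnt4 (adjusted p = 0.815), 0.27 ± 0.29 for Wnt6 (adjusted p = 0.815) and -0.30 ± 0.17 for Wnt11 (adjusted p = 0.554). No gene of the 140 passed by edgeR or by DESeq2 (0% of the panel), while 12 had an unadjusted p below 0.05 by edgeR and 7 by DESeq2. Without male coverslip 1, 3 genes passed. The mix of the class differed as well: 14a was 0.587% and 0.561% of the kept cells on the male coverslips and 0.377% and 0.360% on the female ones. Its part in these values was not tested. With the summed cell volume in place of total counts as the base, Wnt6 was higher in females by a log2 of 0.75, adjusted p = 0.00957 by edgeR, and was 1 of 60 genes that passed, all higher in females. The median gene count per kept cell was higher on both female coverslips than on both male ones, and its part in that value was not tested. An exact permutation test of 2 against 2 coverslips cannot give a two-sided p below 0.333.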

How the data were processed

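RNA was imaged with MERFISH on 4 coverslips, per the labels. The deposited tables give, for each segmented cell, counts per gene and blank, a volume and a position made by the authors; the decoding and segmentation software is not given in the sources used here, nor are the units of volume and position. Coverslips 1 to 3 number their cells from 1, so cell names were not used to look for shared cells, and no doublet caller was run. The members and gene lists were chosen with earlier results of these data known.

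Cells with at least 20 gene counts were kept. Leiden clustering (leidenalg 0.10.2, resolution 1, 15 neighbours, 30 components) used 60000 cells, 15000 per coverslip, scaled to 200 counts, and 136 genes, and labels were carried to the rest. Clusters 14 and 15 were split at resolutions 0.6 and 0.3. Meningeal-type means a sub-cluster of 14 with Col4a6 or Trabd2b at least 4-fold above other cells and Ezr below 2 counts per cell, a rule set after seeing the data. Neurons are clusters with Meg3 at or above 33.9 counts per cell. Sections were separated by position. Sexes were compared on counts summed per coverslip with edgeR 4.0.16 (R 4.3.3) over 140 genes, with DESeq2 1.42.0 as an alternative, at an adjusted p of 0.05. On simulated counts, 20 of 20 genes changed 4-fold among 140 were recovered in each sex comparison, with 1 false call over all cells and 0 in meningeal-type cells. Named were the members, the 3 genes most like each, up to 4 genes per pathway list and up to 3 in the sex comparison; exceptions are stated. The 2% of squares with the highest levels, among squares with at least 5 odd-numbered cells, were added after seeing the data. Depth differed between coverslips, from 33519204 to 76555311 gene counts.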

Additional observations from a re-analysis of the deposited data

Results flagged for a closer look

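Among 93 checks of a lowest or highest sample, 3 stood apart by more than Dixon's 95% limit, where chance alone would mark about 1 in 20 groups. Wnt11 in meningeal-type cells was 0.118 counts per 1000 volume units on coverslip 2, with the nearest other coverslip at 0.171. Wnt4 in the Cux2 and Rorb neurons of cluster 3 was 0.645 on coverslip 4, with the nearest at 0.450. Wnt4 in the Rorb and Gpc5 neurons of cluster 10 was 1.55 on coverslip 4, with the nearest at 0.908. Coverslip 4 also had the highest median gene count per kept cell, 273, and the part of that depth in both Wnt4 values was not tested.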

How the results depend on the processing

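The ratio of meningeal-type cells over neurons for Wnt4 was 5.37 per cell, 9.01 per 10000 gene counts, 6.68 with the mean blank subtracted, 3.73 at clustering resolution 2 and 3.67 with all of cluster 14. For Wnt6 it was 19.1 per 10000 gene counts, 8.09 at resolution 2 and 8.24 with all of cluster 14, and for Wnt11 it was 2.13 per 10000 gene counts, 2.02 at resolution 2 and 2.11 with all of cluster 14. The share of Wnt11 counts in meningeal-type cells became 4.10% at resolution 2 and 3.96% with all of cluster 14. The Wnt4 edge ratio was 2.45 with a band of 50 units. Against the mean in place of the highest blank, margins in meningeal-type cells and neurons were 92.3 and 8.59 for Wnt4, 16.1 and 0.715 for Wnt6, and 2.47 and 0.974 for Wnt11. Leaving out a coverslip gave ratios of 5.73 to 6.11 for Wnt4, 10.7 to 14.9 for Wnt6 and 1.33 to 1.44 for Wnt11, and edge ratios of 1.60 to 1.88, 3.16 to 3.95 and 0.690 to 0.950. Subtracting the mean blank could not be run for the Wnt6 and Wnt11 ratios and shares, since a level was at or below that blank.

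Between the sexes over all cells, edgeR called 0 genes with cell volume as the base, 0 without genes below the highest blank, 4 with a minimum of 50 counts, 4 without low-signal squares, and 0 to 6 with a coverslip left out. In meningeal-type cells it called 1 with library totals, 60 with cell volume, and 0 to 3 with a coverslip left out. Cell volume turned the all-cell log2 differences to 0.26 for Wnt4, 0.11 for Wnt6 and 0.27 for Wnt11, and those in meningeal-type cells to 0.36 for Wnt4 and 0.21 for Wnt11. Wnt11 there was 0.18 at resolution 2 and 0.20 with all of cluster 14. With a coverslip left out, Wnt11 over all cells ran from -0.32 to 0.058, and in meningeal-type cells Wnt4 ran from -0.40 to 0.021 and Wnt6 from -0.080 to 0.73. The causes were not tested. Over the alternatives the members' adjusted p ranged from 0.215 to 0.999 in all cells and from 0.00957 to 0.976 in meningeal-type cells. The use of all of cluster 14, and leaving out 14g, were chosen after seeing the data. No paired analysis was possible because the replicate numbers follow accession order and the labels pair no coverslips across the sexes.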
